A study of Mus musculus with 8 samples.

Results

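The metabotropic glutamate receptors examined here were Grm5 of group I, Grm2 and Grm3 of group II, and Grm4, Grm7 and Grm8 of group III. They were taken by gene symbol, as 6 of the 32726 gene identifiers in a table of poly-A RNA read counts from cultured mouse neurons, and receptors of the family other than these 6 were not used here. The comparison was between neurons of constitutive Nuak1 knockout mice (KO, 4 libraries, KO1 to KO4) and of wild-type mice (WT, 4 libraries, WT1 to WT4), which asks how neurons with growing axons differ once they lack NUAK1, a member of the AMPK-related kinases. All cultures were collected after 5 days in vitro in serum-free medium, and the labels name no treatment. The study describes embryonic cortical neurons on a C57Bl/6JRj background, whereas the tissue label of every library reads cortex or hippocampus. The deletion is present in every cell of a KO culture, so neurons and other cells of the culture lacked NUAK1 alike. Lane A held KO1, KO4, WT1 and WT3, and lane B held the other libraries. The strain labels, whose meaning is not explained, were BJ for KO1, KO2 and KO3, BK for KO4, WT2 and WT4, BO for WT1 and BQ for WT3.

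Metabotropic receptors are G protein-coupled receptors that respond to the same transmitter as the ion channels of excitatory synapses but act through second messengers. Group I receptors couple to Gq, phospholipase C and calcium release, and are mostly postsynaptic. Receptors of groups II and III couple to Gi and Go, lower cyclic AMP and restrain transmitter release, and GRM3 and GRM5 are also well known in astrocytes.

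The receptors are encoded by separate genes with a common core. The genes lie on GRCm38 chromosome 7 (Grm5, ENSMUSG00000049583, from 87583981 to 88135063, plus strand), chromosome 9 (Grm2, ENSMUSG00000023192, from 106644534 to 106656109, minus strand), chromosome 5 (Grm3, ENSMUSG00000003974, from 9485236 to 9725352, minus strand), chromosome 17 (Grm4, ENSMUSG00000063239, from 27422387 to 27513826, minus strand) and chromosome 6 (Grm7, ENSMUSG00000056755, from 110645349 to 111567230, plus strand, and Grm8, ENSMUSG00000024211, from 27275121 to 28135146, minus strand). The genes differ widely in size, from 11.6 kb for Grm2 to 921.9 kb for Grm7, while their longest coding sequences stay between 2619 bases (Grm2) and 3612 bases (Grm5). Aligned coding sequences were 67.4% identical between Grm2 and Grm3 and 67.9% to 69.8% identical among the group III members, against 55.6% to 59.7% between receptor groups. The longest identical run between any pair was 27 bases, in Grm3 and Grm4, and the same window of all 6 coding sequences is shown to mark the part the family shares. Capitals mark the 20 of 27 bases that were identical in every member, in sequences of the GENCODE annotation of NCBIM37.
Grm5: GctTTcACcATGTACACaACcTGcATC
Grm2: GgcTTtACcATGTACACcACcTGtATC
Grm3: GgcTTcACcATGTACACcACcTGcATC
Grm4: GgcTTcACcATGTACACcACcTGcATC
Grm7: GgaTTcACtATGTACACgACtTGtATC
Grm8: GgaTTtACcATGTACACcACgTGcATC
The window starts at base 2320 of the coding sequence in Grm5, 2287 in Grm2, 2314 in Grm3, 2362 in Grm4, 2371 in Grm7 and 2350 in Grm8. Among the 50-base stretches of the members' protein-coding transcripts, from 3271 in Grm2 to 7791 in Grm5, 0 occurred in a protein-coding transcript of another gene. Exons outside these transcripts were not compared, which in Grm8 leaves 4075 stretches for 7850 bases of exon. A transcript on the opposite strand overlaps exons of Grm7, and Mir592 lies in Grm8 on the same strand. The study names a stranded library kit, but whether the counting used strand is not stated in the sources used here. How reads from the overlap of Grm7 with that transcript were counted is therefore not known.

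Totals ranged from 31247078 to 67155004 counts per library, with a median of 39224504, and no library duplicated another. Nuak1 was at 1.96 to 2.72 CPM, counts scaled to a common library total, in the KO libraries and at 51.6 to 82.6 CPM in the WT libraries, as labelled. KO1 and WT1 stood apart from the other 6 libraries, at -27.6 and -28.4 on the first principal component (51.9% of the variance) against 0.0733 to 22.6. Each member is also given without this pair, in a fit with no surrogate variable, beside the fit of the same form on all 8 libraries. Markers of glutamatergic cortical neurons summed to 1680 to 1980 CPM in the KO libraries and 1640 to 2480 CPM in the WT libraries, led by Mef2c and Neurod6, transcription factors of excitatory neurons. Of the hippocampal list, Zbtb18, which cortical neurons also express, made up most of the sum, at 491 ± 45.6 CPM in KO against 474 ± 113 in WT libraries (SD, n = 4). Zbtb20 was at 95.4 ± 26.4 and 92.9 ± 20.6 CPM, and the other 8 markers had mean CPM from 2.53 to 49.7 in KO libraries and from 3.18 to 56.0 in WT libraries.

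Of the 6 receptors, the mRNA of Grm5 was the most abundant in the cultures. It encodes the postsynaptic Gq-coupled receptor of cortex and hippocampus. Scaled by the length of all exons, Grm5 stood at 47.7 ± 7.98 CPM per kb (SD, n = 8 libraries), followed by Grm3 at 16.6 ± 4.34, Grm7 at 13.9 ± 2.9, Grm2 at 6.2 ± 2.64, Grm8 at 1.87 ± 0.402 and Grm4 at 1.22 ± 0.498. The lowest Grm5 level, 40.2 CPM per kb, lay above the highest Grm3 level, 24.9. The ranges of Grm2 and Grm8 were also apart, at 3.12 to 11.4 against 1.48 to 2.79 CPM per kb. Neighbours whose ranges met were Grm3 and Grm7 (Grm3 above Grm7 in 5 of 8 libraries), Grm7 and Grm2 (Grm7 above in 8 of 8) and Grm8 and Grm4 (Grm8 above in 6 of 8). With the longest transcript or the longest coding sequence as the length, Grm7 came before Grm3, so that pair has no order that holds for every length. Grm2 stayed before Grm8, but their ranges then met. Group I made up 56.0% ± 3.11 of the summed level per kb in KO and 53.1% ± 3.17 in WT libraries (SD, n = 4). For group II the shares were 24.0% ± 3.76 and 28.0% ± 3.48, and group III, at 18.9% ± 1.34 in WT, made up the rest.

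**Figure D1:**
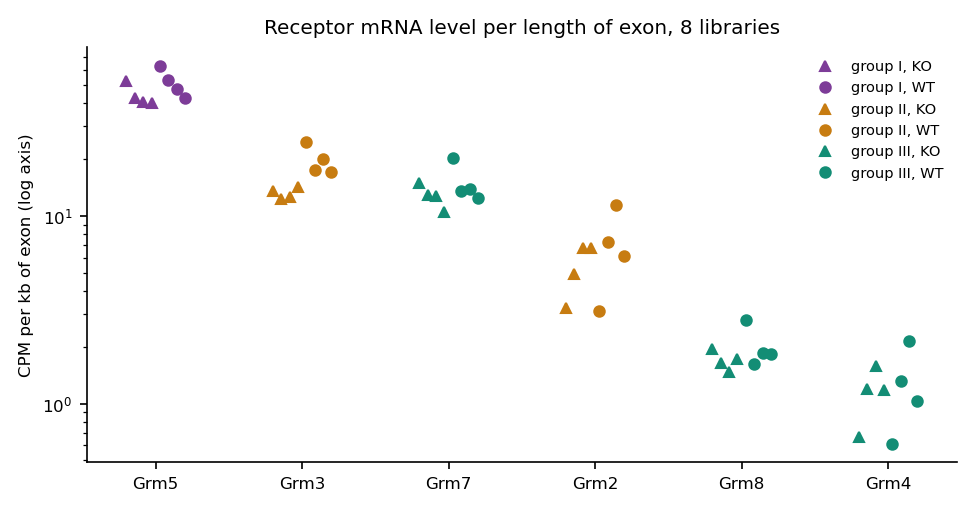
Level of each receptor mRNA in CPM per kb of exon on a log axis, ordered from the highest mean to the lowest, with 1 point per library (circles WT, triangles KO) coloured by receptor group. Grm5 lies above every other member in all libraries, from 40.2 to 63.0 CPM per kb, and Grm4 and Grm8 lie lowest.

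The member that differed most between genotypes was Grm3, a Gi-coupled receptor of group II, with a group mean of 47.1 ± 3.3 CPM in KO and 71.4 ± 12.7 CPM in WT libraries (SD, n = 4 each). Grm5, Grm2, Grm7 and Grm8 had fitted differences of similar, smaller size in the same direction. For Grm4 the fitted log2 fold change was -0.09 ± 0.17 (SE), too imprecise to set it apart from them. In the edgeR quasi-likelihood fit over all 16272 tested genes, with 1 surrogate variable for unwanted variation, 0 of the 6 members passed an adjusted p of 0.05, a threshold that 0.0492% of all tested genes passed in either direction. The looser rule of the study was a log2 fold change beyond 0.25 with p under 0.05, read here as unadjusted. The study does not specify whether that p was adjusted, so its own calls can differ from those here. At this rule 5 of 6 members were lower in KO, against 3.51% of all tested genes, and 0 were higher, against 2.16%. The fitted value was below 0 for all 6 members and for 46.6% of tested genes. The members' direction was known when they were chosen, so these counts describe them and give no independent support. The 5 of 6 also depended on the model, since only 1 member, Grm3, met that rule without the surrogate variable and 0 did with the strain label in its place, a fit that rests on KO4 against WT2 and WT4. They depended on single libraries too, with 1 member left without WT1 and 3 without KO1, KO2, KO3, WT2 or WT3, each left out in turn. In bulk RNA, fewer cells of a type and less RNA per cell cannot be told apart.

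**Figure D2:**
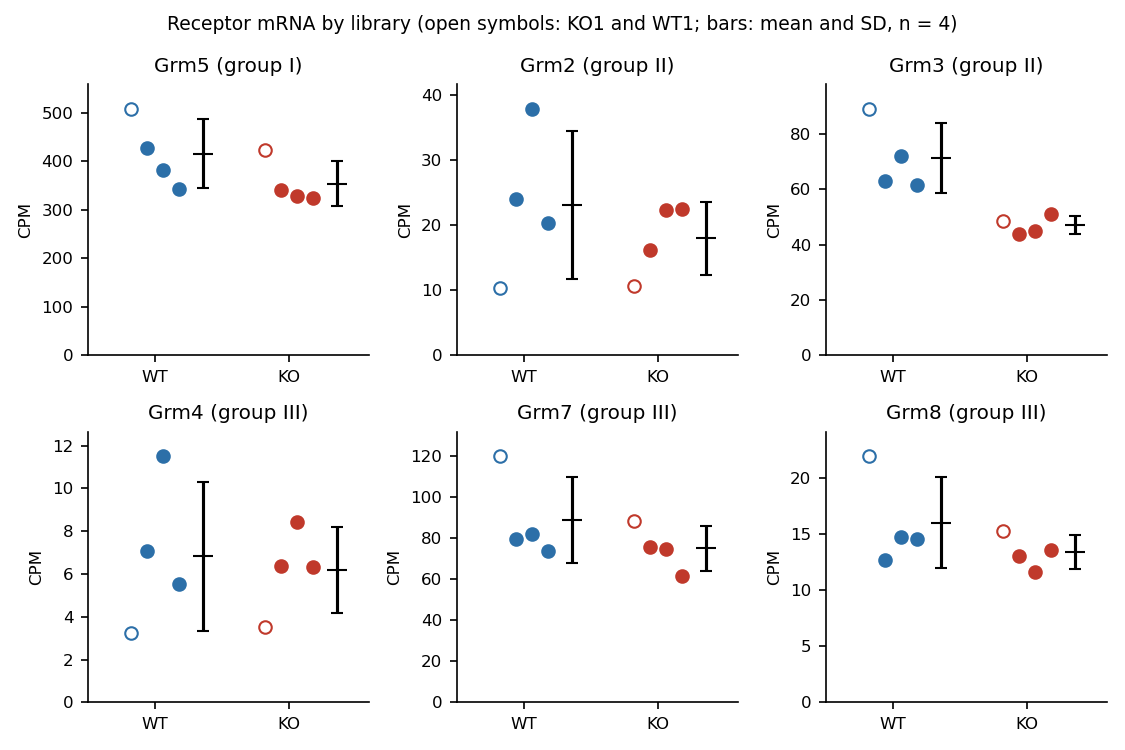
CPM of each receptor in the 4 WT and 4 KO libraries, with the group mean and SD (n = 4) beside the points and KO1 and WT1 drawn as open symbols. The genotypes are apart only for Grm3, where the highest KO library is at 51.0 and the lowest WT library at 61.5 CPM, and the open symbols are lowest for Grm2 and Grm4 and highest in WT for Grm5, Grm3, Grm7 and Grm8.

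Grm5 is the only group I member here. Its CPM were 423, 342, 328 and 324 in KO1 to KO4 and 508, 428, 383 and 343 in WT1 to WT4. The ranges met, with the KO value below the WT value in 14 of 16 pairings of a KO with a WT library, and KO1 and WT1 were the highest of their genotypes. The log2 fold change was -0.28 ± 0.089 (SE), with an unadjusted p of 0.0109 in the edgeR fit and an adjusted p of 0.365. An exact permutation test of the group means, two-sided, gave p = 0.171, where 0.0286 is the smallest p that 4 against 4 libraries allow. Without KO1 and WT1 the KO libraries, at 324 to 342 CPM, lay just below the WT libraries, at 343 to 428 CPM, a separation that 3.44% of tested genes showed in these 6 libraries, and the log2 fold change, fitted without a surrogate variable, was -0.25 (edgeR unadjusted p = 0.0503), against -0.27 (edgeR unadjusted p = 0.112) in the same form of fit on all 8 libraries.

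In group II, Grm3 was at 48.7, 43.9, 44.9 and 51.0 CPM in KO1 to KO4 and at 89.1, 63.2, 72.0 and 61.5 CPM in WT1 to WT4. Every KO library lay below every WT library, a separation in this direction that 0.86% of tested genes showed. The raw counts behind these values were 1519 to 2343 in KO and 2335 to 4241 in WT, so counting error is small beside the spread between libraries. The log2 fold change was -0.63 ± 0.1 (SE), or -35.4%, and Grm3 ranked 19 of 16272 by p (edgeR unadjusted p = 0.000147, adjusted p = 0.121). The exact permutation p of 0.0286, two-sided, was the smallest the design can give, and 6 such tests were run, one per member. Adjusted over these 6 tests, the permutation p of Grm3 was 0.171. WT1 held the highest value, and without KO1 and WT1 the ranges stayed apart, at 43.9 to 51.0 against 61.5 to 72.0 CPM (3.44% of tested genes), and the log2 fold change, fitted without a surrogate variable, was -0.52 (edgeR unadjusted p = 0.000873, adjusted p = 0.98). On all 8 libraries the same form of fit gave -0.64 (edgeR unadjusted p = 0.00139, adjusted p = 1.0).

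Grm3 was also the member for which the choice of model decided the call. It passed the adjusted threshold with lane added beside the surrogate variable (edgeR adjusted p = 0.0346), with no filter on low counts (edgeR adjusted p = 0.00139), in DESeq2 with the same surrogate variable (adjusted p = 9.29e-05) and in lane B alone (edgeR adjusted p = 0.0323). It did not pass in the other 19 alternatives, whose log2 fold changes ran from -0.72 to -0.3. Within lane A alone the log2 fold change was -0.72 and within lane B alone -0.56. The strain label could be compared within BK only, where Grm3 was at 51.0 CPM in KO4 and at 63.2 and 61.5 CPM in WT2 and WT4. With the strain label fitted, the genotype difference rests on these 3 libraries, since BJ was found only in KO and BO and BQ only in WT, and it was -0.3 for Grm3, -0.27 for Grm5 and -0.33 for Grm7. KO4 was on lane A and WT2 and WT4 on lane B, so in this comparison lane and genotype cannot be told apart.

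Astrocytes and oligodendrocyte precursors, which also express Grm3, can be read from their markers. The 12 astrocyte markers had summed CPM from 1180 to 2160 in KO libraries and from 1190 to 1890 in WT libraries. Their median log2 fold change was 0.08, with 0 of 12 at an unadjusted p under 0.05, against 5.78% lower and 4.71% higher among all tested genes. Their most abundant genes were the glutamate transporters Slc1a3, at 608 ± 91.8 CPM in KO and 588 ± 137 in WT (SD, n = 4), and Slc1a2, at 338 ± 104 and 356 ± 106. Of the 12 markers 9 had a fitted value above 0, while 46.6% of all tested genes were below 0. The furthest was Gfap, a filament protein of astrocytes, at 107 ± 95.9 CPM in KO and 28.0 ± 21.7 CPM in WT (log2 fold change 1.95 ± 1.12 SE, edgeR unadjusted p = 0.137), named after its values were seen. The 7 markers of oligodendrocyte precursors in the table had summed CPM from 537 to 626 in KO libraries and from 503 to 604 in WT libraries, led by Pdgfra and Olig2. Neither sum separated the genotypes as Grm3 did, and the part of these cells in the Grm3 result was not tested. Microglial markers were low, with summed CPM from 3.81 to 44.3 over 10 genes in KO libraries and from 3.97 to 19.2 in WT libraries. Their median log2 fold change was 1.35, with 7 of 8 tested genes above 0 and 0 at an unadjusted p under 0.05, against the same shares of all tested genes (46.6% below 0, and 5.78% lower and 4.71% higher at that p). GABAergic interneuron markers summed to at most 403 CPM in KO and at most 361 CPM in WT libraries. For Cajal-Retzius cells the ranges were 368 to 562 and 402 to 620, and for progenitors 974 to 1320 and 893 to 1200.

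Grm2 encodes the other, mostly presynaptic receptor of group II, and its genotypes overlapped. Its CPM were 10.7, 16.2, 22.4 and 22.5 in KO1 to KO4 and 10.4, 24.0, 37.9 and 20.4 in WT1 to WT4. KO1 and WT1 were the lowest of their genotypes, WT3 was the highest, and the ranges overlapped, with KO below WT in 10 of 16 pairings. The log2 fold change was -0.3 ± 0.12 (SE; edgeR unadjusted p = 0.0345, adjusted p = 0.448), and the exact permutation p of the group means was 0.514, two-sided. Fitted without a surrogate variable, the log2 fold change was -0.46 without KO1 and WT1 (edgeR unadjusted p = 0.0838) and -0.4 with all 8 libraries (edgeR unadjusted p = 0.307). In the comparison within BK, of KO4 with WT2 and WT4, it was -0.0016. With the surrogate variable, and WT3 alone left out, it was -0.16 (edgeR unadjusted p = 0.116), and with 2 surrogate variables -0.19. The ratio of Grm3 to Grm2 CPM was 4.53 and 8.59 in KO1 and WT1 and 1.9 to 3.02 in the other 6 libraries. As a sum, group II was at 65.1 ± 6.64 CPM in KO and 94.6 ± 12.6 CPM in WT, a ratio of 0.688, the lowest of the receptor groups (group I 0.853, group III 0.849), and the sums were not tested. Grm3 made up most of the group II sum, at 47.1 CPM in KO and 71.4 CPM in WT, so this ratio largely restates the Grm3 difference.

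The promoters of the group II genes, members on the same G protein pathway whose levels moved apart in KO1 and WT1, are shown as the 250 bases before the RefSeq transcript start (GRCm38.p6), chr9:106656110-106656359 for Grm2 and chr5:9725353-9725602 for Grm3, both on the minus strand. Capitals mark GGGCGG, the GC box to which factors of the Sp family bind.
Grm2 promoter: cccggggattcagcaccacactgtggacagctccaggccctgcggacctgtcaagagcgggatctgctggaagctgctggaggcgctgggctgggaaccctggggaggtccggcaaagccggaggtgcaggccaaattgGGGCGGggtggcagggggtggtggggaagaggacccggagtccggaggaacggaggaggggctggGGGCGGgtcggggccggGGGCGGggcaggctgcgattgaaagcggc
Grm3 promoter: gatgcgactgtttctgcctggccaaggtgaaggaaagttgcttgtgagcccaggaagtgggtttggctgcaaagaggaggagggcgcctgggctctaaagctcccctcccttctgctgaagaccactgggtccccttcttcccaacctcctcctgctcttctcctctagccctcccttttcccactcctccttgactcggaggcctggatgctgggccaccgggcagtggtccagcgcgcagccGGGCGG
The Grm2 promoter had a GC content of 71.2%, 16 CpG and 3 GC boxes on the strand shown, and the Grm3 promoter 62.4%, 8 CpG and 1 GC box directly before the start. Across 32851 promoter windows of the same length the medians were 52.4% GC and 6 CpG. GGGCGG or its complement CCGCCC occurred in 32.7% of them, and TATAAA or TTTATA in 12.4%. Neither promoter held the latter. RefSeq windows were matched for 4 of the 6 members (Grm2, Grm3, Grm7 and Grm8). The part of the promoters in the levels of either gene, in KO1 and WT1 or between genotypes, was not tested.

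The group III members act at presynaptic terminals, and Grm7 was the most abundant of them. Grm7 was at 88.3, 76.0, 74.9 and 61.7 CPM in KO1 to KO4 and at 120, 79.8, 82.0 and 73.9 CPM in WT1 to WT4. The ranges overlapped, with KO below WT in 11 of 16 pairings and WT1 far above the other WT libraries. The log2 fold change was -0.28 ± 0.086 (SE; edgeR unadjusted p = 0.00911, adjusted p = 0.365), the exact permutation p was 0.371, two-sided, and KO was at 61.7 to 76.0 against 73.9 to 82.0 CPM without KO1 and WT1. Fitted without a surrogate variable, the log2 fold change was -0.19 without that pair (edgeR unadjusted p = 0.0985) and -0.28 with all 8 libraries (edgeR unadjusted p = 0.148). It was -0.46 in lane A alone and -0.096 in lane B alone.

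Grm8 was at 15.3, 13.0, 11.6 and 13.6 CPM in KO and at 21.9, 12.7, 14.7 and 14.5 CPM in WT. Again WT1 stood far above the rest and the ranges overlapped. The log2 fold change was -0.28 ± 0.11 (SE; edgeR unadjusted p = 0.0249, adjusted p = 0.417) and the exact permutation p was 0.286, two-sided. Fitted without a surrogate variable, it was -0.17 without KO1 and WT1 (edgeR unadjusted p = 0.184) and -0.29 with all 8 libraries (edgeR unadjusted p = 0.158). Without WT1 alone, with the surrogate variable, it was -0.17 (edgeR unadjusted p = 0.188). In the comparison within BK, of KO4 with WT2 and WT4, it was -0.02.

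Grm4, whose receptor is best known from cerebellar terminals, was the rarest member, at 123 to 440 counts in KO and 102 to 547 counts in WT libraries. Its CPM were 3.53, 6.39, 8.44 and 6.33 in KO1 to KO4 and 3.26, 7.06, 11.5 and 5.53 in WT1 to WT4. KO1 and WT1 were the lowest of their genotypes, and KO was below WT in 8 of 16 pairings. The log2 fold change was -0.09 ± 0.17 (SE; edgeR unadjusted p = 0.615, adjusted p = 0.881), the exact permutation p was 0.829, two-sided, and 4 of 23 alternatives gave the opposite sign. Fitted without a surrogate variable, the log2 fold change was -0.22 without KO1 and WT1 (edgeR unadjusted p = 0.431) and -0.18 with all 8 libraries (edgeR unadjusted p = 0.635). It was -0.58 in lane A alone and 0.16 in lane B alone.

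**Figure D3:**
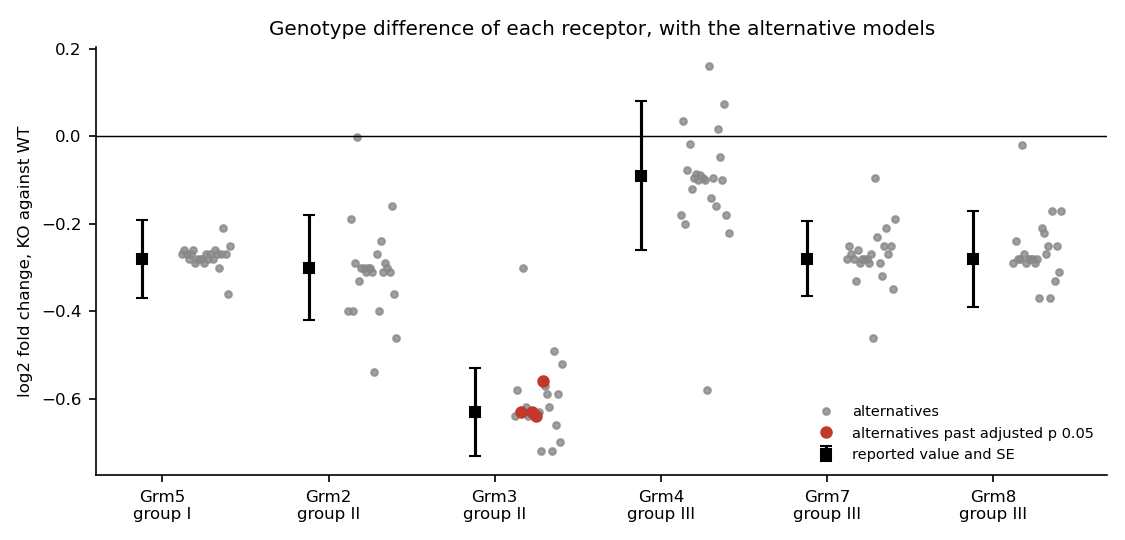
Log2 fold change of each receptor, KO against WT, as reported with its SE (black squares) and in each of the 23 alternative models (grey points, red where the adjusted p was under 0.05). Grm3 has the lowest reported value, its alternatives run from -0.72 to -0.3 and reach into the ranges of other members, the only red points are its own, and Grm4 crosses 0.

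The difference between lanes in the genotype effect was tested for every gene as an interaction term in edgeR, without a surrogate variable. It called 0.0% of tested genes, 0 of 16272 at an adjusted p of 0.05 and 256 at an unadjusted p of 0.05. For the members the lane B minus lane A difference in log2 fold change ran from 0.01 ± 0.32 (SE) for Grm5 to 0.76 ± 0.81 for Grm4, with unadjusted p from 0.339 to 0.974. For Grm3 it was 0.16 ± 0.23.

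The members split into 2 patterns across libraries, and the split followed KO1 and WT1 rather than the receptor groups. In log2 CPM, averaged over KO1 and WT1, each relative to the mean of the other 3 libraries of its genotype, Grm2 was shifted by -1.11 and Grm4 by -1.08. Grm7 was shifted by 0.49, Grm8 by 0.48, Grm5 by 0.4 and Grm3 by 0.28. The first pair has a coding GC content of 60.7% and 60.3%, the others of 47.3% to 51.6%. Among tested genes with a coding GC content of 58% to 62% the median shift was -0.79 (2084 genes), and among those of 45% to 52% it was 0.18 (4470 genes). The members thus lay on the same side as these genes, but not all at a like size. Grm7 lay above the 90th percentile of genes with 48% to 50% GC (median 0.18, 90th percentile 0.46). Grm5 was at the 90th percentile, 0.4, of genes with 50% to 52% GC (median 0.04). The other members lay between the 10th and 90th percentiles of genes in their own bin of GC content. The part of GC content in the members' values was not tested.

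**Figure D4:**
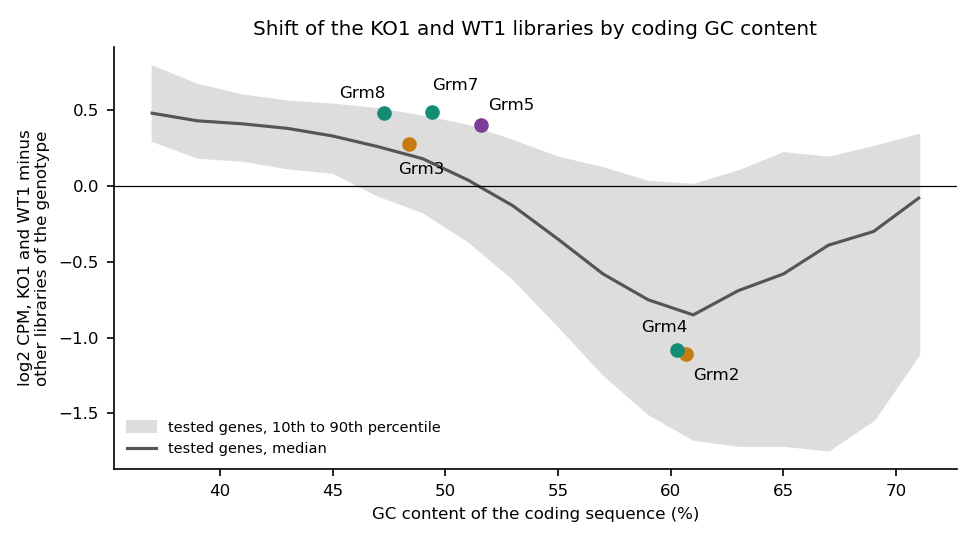
Shift of KO1 and WT1 in log2 CPM from the mean of the other libraries of the genotype, against the GC content of the coding sequence. The line and band give the median and the 10th to 90th percentiles of tested genes in bins of GC content, and the points give the 6 receptors, Grm2 and Grm4 near -1.1 and the others between 0.28 and 0.49.

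By the root mean square difference of centred log2 CPM over the 8 libraries, Grm2 and Grm4 were closest to each other among the members (0.179), against 0.674 between Grm2 and Grm3. Grm5 and Grm7 were the closest pair (0.111), and Grm7 and Grm8 differed by 0.151. Such distances also depend on how much each gene varied itself. The root mean square deviation was 0.24 for Grm5, 0.271 for Grm7 and 0.27 for Grm8, against 0.582 for Grm2 and 0.555 for Grm4. Shared regulation was not tested. Among all tested genes the profile of Grm3 was most like Slc8a1, a sodium-calcium exchanger (0.074), and Il1rapl1, a synaptic adhesion protein (0.107). The profile of Grm5 was most like Lrrc8b (0.041) and B4galt6 (0.058), and that of Grm7 most like 9330182L06Rik (0.058) and Fuca2 (0.06). Grm2 was most like Lmna (0.102) and Klf15 (0.115), Grm4 most like Zbtb7b (0.115) and Ankrd9 (0.119), and Grm8 most like Lcor (0.061) and an identifier without a symbol (0.075).

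Around the receptors, 4 lists of pathway genes were counted, and 0 of their genes passed the adjusted threshold in edgeR or limma-voom. DESeq2 passed 1 gene in each of 2 lists, Itpr1 and Slc38a1. It passed 165 of all 16272 tested genes, against 8 in the reported edgeR fit. Of the 20 genes for group I coupling and scaffolds, 2 were lower in KO at an unadjusted p under 0.05 and 0 higher, against 5.78% and 4.71% of all tested genes, with a median log2 fold change of -0.03 against 0.014 over all genes. Itpr1, the calcium release channel downstream of Gq, was at 80.1 ± 12.9 CPM in KO and 110 ± 26.2 CPM in WT libraries (SD, n = 4), with a log2 fold change of -0.46 ± 0.11 (SE; edgeR unadjusted p = 0.00159, adjusted p = 0.262). The scaffold Homer2 had one of -0.19 ± 0.074 (edgeR unadjusted p = 0.0259) and the kinase Prkca one of -0.24 ± 0.11 (edgeR unadjusted p = 0.0592).

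Of the 21 genes for group II and III coupling, 5 were lower and 2 higher in KO at an unadjusted p under 0.05, against 5.78% and 4.71% of all tested genes, with a median log2 fold change of 0.01. The adenylyl cyclase Adcy9 had a log2 fold change of -0.26 ± 0.068 (SE; edgeR unadjusted p = 0.00333). The G protein subunit Gnai2 had one of 0.26 ± 0.068 (edgeR unadjusted p = 0.00358), and Kcnj3, a subunit of the potassium channels that Gi-coupled receptors open, one of -0.38 ± 0.11 (edgeR unadjusted p = 0.00652). The cyclase and the G protein subunit thus had opposite signs within the list.

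Of the 12 genes for glutamate transport and release, 4 were lower and 0 higher in KO at an unadjusted p under 0.05, against the same 5.78% and 4.71%, with a median log2 fold change of -0.17. The amino acid transporter Slc38a1, which carries glutamine into neurons, ranged from 371 to 425 CPM in KO libraries and from 433 to 497 CPM in WT libraries (log2 fold change -0.3 ± 0.064 SE, edgeR unadjusted p = 0.000835, adjusted p = 0.225). These ranges did not meet, a separation in this direction that 0.86% of tested genes showed. Slc38a2, a related transporter, had a log2 fold change of -0.25 ± 0.073 (edgeR unadjusted p = 0.00701), and Slc17a7, the vesicular transporter VGLUT1, one of -0.32 ± 0.11 (edgeR unadjusted p = 0.016).

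Of the 19 measured receptor partners and desensitisation genes, 0 had an unadjusted p under 0.05, against 5.78% lower and 4.71% higher among all tested genes. The median log2 fold change was 0.03. The receptor kinase Grk2 had a log2 fold change of 0.13 ± 0.059 (SE; edgeR unadjusted p = 0.0585). The exchange factor Cyth2 had one of 0.14 ± 0.069 (edgeR unadjusted p = 0.0675) and the calmodulin gene Calm2 one of 0.11 ± 0.085 (edgeR unadjusted p = 0.215).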

How the data were processed

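Poly-A RNA of 8 cultures was sequenced. Per the labels and the study's methods, the authors trimmed reads with Cutadapt 1.10, discarded rRNA reads, aligned with STAR 2.5.3a to mm10 and deposited counts of uniquely aligned reads per Ensembl gene from HTSeq 0.6.1p1, which leaves multi-mapping reads uncounted. Replicates were not pooled.

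The deposited counts were fitted with edgeR 4.0.16 under R 4.3.3: filterByExpr, TMM scaling, 1 surrogate variable from svaseq (sva 3.50.0) and a robust quasi-likelihood F test, with Benjamini-Hochberg (BH) adjustment over all tested genes. The procedure was tested on simulated data. CPM are counts scaled by the library total, and CPM per kb divides by the exon length in GENCODE. Group means of CPM were compared by exact permutation. The study's own adjustment (IHW) was not used. Per-length levels, gene sequences and alignments used pandas 2.3.3 and Biopython 1.88.

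Named were all members, Nuak1, the 3 pathway genes of smallest p per list, the nearest profiles and the most abundant markers. Members, lists and tests were chosen with earlier results of these data known. Nothing says that replicates are separate animals except the methods, which give 4 animals per condition. Strain label, lane, surrogate variables, scaling, filters, DESeq2 1.42.0, limma-voom 3.58.1 and each library left out were the alternatives.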

Additional observations from a re-analysis of the deposited data

How the results depend on the processing

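Of the 6 members, 0 passed the adjusted threshold in the reported fit, and 1, Grm3, passed with lane beside the surrogate variable, without a filter, in DESeq2 and in lane B alone. Grm5, Grm2, Grm3, Grm7 and Grm8 were below 0 in 23 of 23 alternatives and Grm4 in 19. Grm4 was at 0.035 with 2 surrogate variables, 0.16 in lane B alone, -0.58 in lane A alone, and between -0.18 and 0.074 as single libraries were left out, above 0 without KO4 or WT3. Members lower in KO at the looser rule of the study, 5 as reported, numbered 1 without a surrogate variable, with lane in its place, and in the fits of each lane alone and without both KO1 and WT1, which also had no surrogate variable, 2 with 2 surrogate variables, 0 with the strain label, and 4 with the replicate block in place of the surrogate variable. With single libraries left out they numbered 1 (without WT1), 3 (without KO1, KO2, KO3, WT2 or WT3) and at most 5. Among all genes, 571 were lower at that rule, against 259 without a surrogate variable, 269 with lane in its place, 232 with the strain label, and 358 (without WT1) to 785 (without WT3). Further fits with no surrogate variable gave 75 in lane A alone, 763 in lane B alone, 337 without both KO1 and WT1, and 487 with the replicate block. The adjusted threshold was passed by 8 genes as reported, by 4 without a surrogate variable or with lane in its place, 17 with 2, 15 with lane beside it, 1 with the strain label, 49 unfiltered, 165 in DESeq2, 0 in lane A alone, 99 in lane B alone and 3 without both KO1 and WT1 (again with no surrogate variable), and, with single libraries left out, by 4 (without KO1, KO2 or WT1), 3 (without KO3 or WT2) and up to 114 (without WT3). The cause of these differences was not tested. The order of the members kept 4 of 6 places under either other length. Same-numbered KO and WT libraries deviated together for number 1 (r = 0.8 across genes) but hardly for the others (0.002 to 0.249), so the numbers were not taken to pair the samples. KO1 and WT1 were also both on lane A. With the replicate block 3 genes and 0 members passed, and Grm3 stood at -0.62. Depth limits Grm4 most, with 102 to 547 counts per library.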
